A study of Homo sapiens with 20 samples.

Results

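RUNX1 binding on human chromosomes 10 and 22 was examined in THP-1, an established acute monocytic leukemia cell line, with and without depletion of the transcription factor PU.1. The regions are the 1894 peaks of RUNX1 chromatin immunoprecipitation sequencing (ChIP-seq) that lie on these chromosomes, 1253 on chromosome 10 and 641 on chromosome 22, out of 26642 peaks in all (7.11%). The knockdown cells carried a doxycycline-inducible shRNA against PU.1 and the control cells an inducible scramble shRNA, and doxycycline was given to both. Of the 20 samples, 12 were RUNX1 immunoprecipitations (6 control and 6 knockdown libraries) and 8 were IgG samples, which were not analysed here. The labels name 2 batches, with 3 control and 2 knockdown libraries in batch 1 and 3 control and 4 knockdown libraries in batch 2. Each group is 1 derived line with 1 shRNA, so an effect of losing PU.1 cannot be told apart from a difference between the lines, a gain or loss of chromosome copies included. The PU.1 level itself was not analysed here.

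RUNX1 binds DNA through its Runt domain as a heterodimer with CBFβ and acts with PU.1, an ETS factor that binds purine-rich GGAA sites, at enhancers and promoters of myeloid genes. A ChIP-seq read count at a peak reflects how often the factor was crosslinked there, and also how many copies of that DNA the cells hold. A change in copy number moves all the peaks of a segment together, whereas local regulation moves single peaks or small groups against their surroundings.

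The chromosomes were selected on the values described first, the median change of their peaks in this same contrast. That median, as a log2 fold change (knockdown over control, DESeq2 with batch as a covariate), was 0.14 on chromosome 10 and 0.14 on chromosome 22, the highest medians among the 22 autosomes. The next was chromosome 17 with 0.03, and the median over the other 20 autosomes was -0.04. Positive changes made up 60.3% of the chromosome 10 peaks, 60.8% of the chromosome 22 peaks and 46.9% of the peaks on the other autosomes. These values chose the regions and carry no test.

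**Figure D1:**
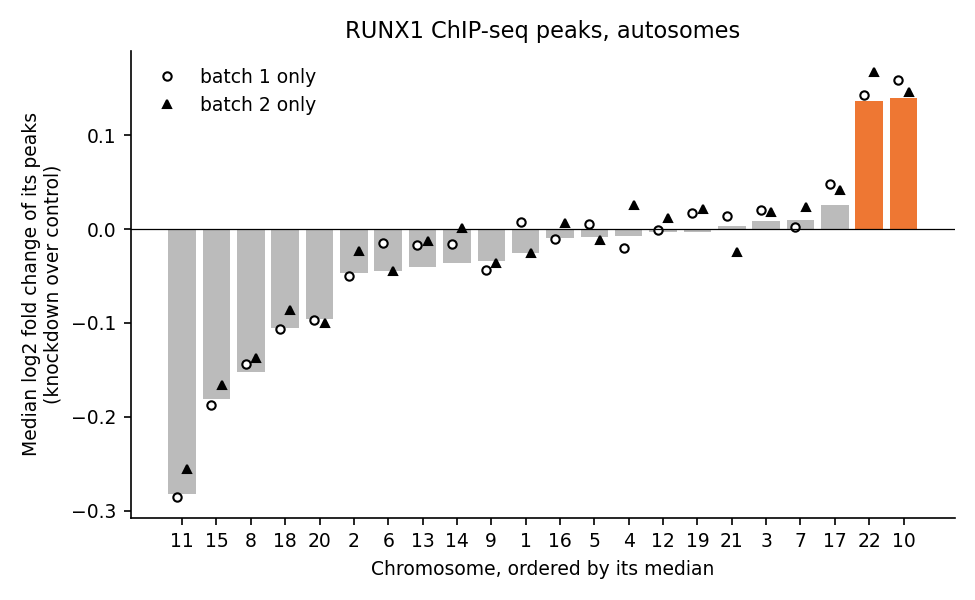
Median log2 fold change (knockdown over control, vertical axis) of the RUNX1 peaks of each autosome (horizontal axis, ordered by the median). Bars stand for the fit to all 12 libraries, circles for batch 1 and triangles for batch 2, with chromosomes 10 and 22 in orange at the right end, above chromosome 17 with 0.03.

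Promoter sequences were at hand for a part of the peaks that left the level of their surroundings. Most such peaks lay over 1 kb from an end of a protein-coding gene, so these sequences do not stand for all of them. A promoter here is the RefSeq window of 250 bases before to 50 bases after an annotated start of a gene on GRCh38.p14, and a gene can have several. The letters searched on both strands were the RUNX cores TGTGGT and TGCGGT and the PU.1 site GAGGAAGT (the matches printed do not overlap), and capitals mark a match on either strand. Among the genes of the lists described further down and the genes nearest the most displaced peaks, the promoters under the 4 peaks furthest from their window are printed 5′ to 3′ along the gene. They are those of MRTFA (chr22:40463391-40463690, minus strand), a coactivator of serum response factor, BCL2L13 (chr22:17706531-17706830, plus strand), a mitochondrial protein of the BCL2 family, XBP1 (chr22:28800028-28800327, minus strand), a factor of the unfolded protein response, and BID (chr22:17773934-17774233, minus strand), a proapoptotic BH3-only protein.
MRTFA: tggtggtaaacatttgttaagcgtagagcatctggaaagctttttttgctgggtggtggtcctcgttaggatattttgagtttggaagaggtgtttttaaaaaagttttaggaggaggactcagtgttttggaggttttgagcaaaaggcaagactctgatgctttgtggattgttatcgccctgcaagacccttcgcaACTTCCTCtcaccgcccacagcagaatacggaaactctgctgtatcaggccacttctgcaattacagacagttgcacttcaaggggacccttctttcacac
BCL2L13: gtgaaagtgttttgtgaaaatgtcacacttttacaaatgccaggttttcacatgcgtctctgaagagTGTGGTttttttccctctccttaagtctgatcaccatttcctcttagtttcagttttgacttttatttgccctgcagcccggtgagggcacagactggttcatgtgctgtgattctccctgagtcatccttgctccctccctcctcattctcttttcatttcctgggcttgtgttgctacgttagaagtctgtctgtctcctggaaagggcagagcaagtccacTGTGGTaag
XBP1: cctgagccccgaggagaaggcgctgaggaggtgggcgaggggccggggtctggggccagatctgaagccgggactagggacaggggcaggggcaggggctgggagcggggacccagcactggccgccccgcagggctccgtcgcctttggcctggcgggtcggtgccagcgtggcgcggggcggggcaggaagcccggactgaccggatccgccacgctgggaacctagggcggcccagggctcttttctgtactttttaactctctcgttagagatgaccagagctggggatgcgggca
BID: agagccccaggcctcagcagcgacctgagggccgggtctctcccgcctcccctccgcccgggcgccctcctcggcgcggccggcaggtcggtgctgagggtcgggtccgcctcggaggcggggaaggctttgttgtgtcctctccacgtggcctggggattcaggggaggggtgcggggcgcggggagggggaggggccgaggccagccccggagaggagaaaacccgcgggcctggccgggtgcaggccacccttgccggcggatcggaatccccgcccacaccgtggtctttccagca
The MRTFA promoter held 1 GAGGAAGT, on the opposite strand, the BCL2L13 promoter held 2 TGTGGT, and those of XBP1 and BID held none of the letters searched. Over all 35116 promoters of the RefSeq table, 13.1% held TGTGGT, 7.29% TGCGGT, 19.6% either core and 2.59% GAGGAAGT. A match is a description of the letters and not of bound factor.

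In individual libraries the level of a chromosome was taken as the median over its peaks of log2(normalised count + 1) minus the mean of the control libraries of the same batch. For chromosome 10 the control libraries lay at -0.016 (lowest), 0.010 (median) and 0.021 (highest), and the knockdown libraries at 0.153, 0.171 and 0.186. For chromosome 22 the corresponding values were -0.018, 0.003 and 0.047 for control and 0.141, 0.165 and 0.193 for knockdown. All 6 knockdown libraries thus lay above all 6 control libraries on both chromosomes, while on the other autosomes knockdown libraries ranged from -0.025 to 0.008 and control libraries from -0.004 to 0.013. The chromosomes were chosen for a high median in these same libraries, so the separation is a description and no support for the shift. The share of in-peak reads scales each library by its total in-peak reads and uses no size factors. It is another reading of the same counts and had the same order. Chromosome 10 took 4.34% to 4.40% of the reads in control and 4.82% to 4.93% in knockdown libraries, and chromosome 22 took 2.30% to 2.39% and 2.61% to 2.71%.

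**Figure D2:**
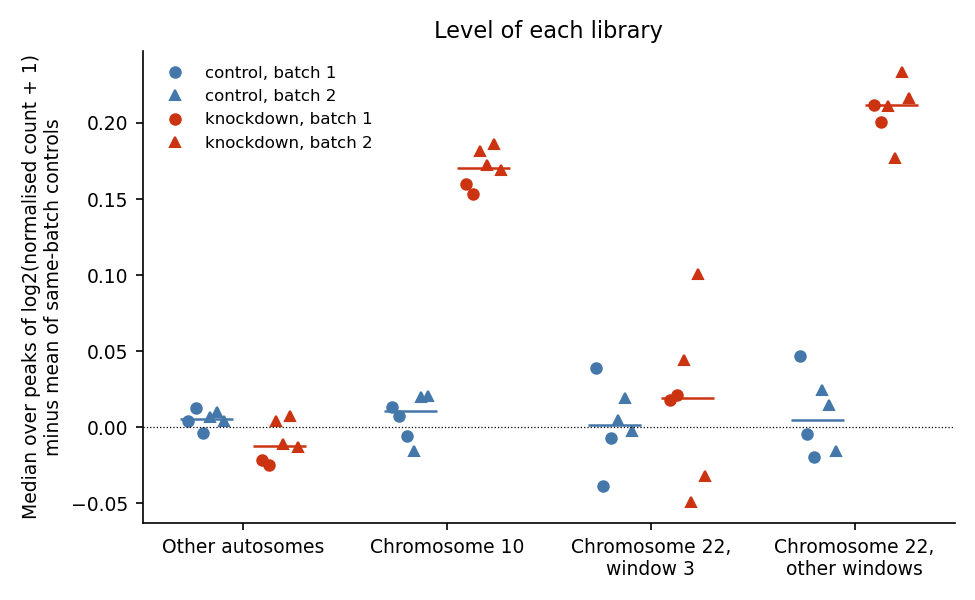
Level of each library (vertical axis, log2) for the other autosomes, chromosome 10, the window of chromosome 22 between 20 and 30 Mb (window 3) and the other windows of chromosome 22; points are libraries, circles batch 1, triangles batch 2, and lines are group medians. Knockdown libraries (red) lie above control libraries (blue) for chromosome 10 and most of chromosome 22, and the groups overlap in window 3, where knockdown spans -0.049 to 0.101.

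The shift was not restricted to weakly or strongly bound regions. Peaks over 1 kb from an end of a protein-coding gene had a median log2 fold change of 0.24 on chromosomes 10 and 22 and 0.05 on the other autosomes, a difference of 0.18. Peaks within 1 kb of a gene end had medians of -0.05 and -0.18, a difference of 0.13. When all peaks of the series were divided into 3 equal classes by mean normalised count, the difference was 0.21 in the weakest, 0.18 in the middle and 0.15 in the strongest class. Along the whole distribution, the 10th, 25th, 75th and 90th percentiles on chromosomes 10 and 22 exceeded those of the other autosomes by 0.30, 0.20, 0.18 and 0.19. Peaks near gene ends were 20.9% of the peaks on these chromosomes and 24.7% on the other autosomes.

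To ask whether the shift belonged to whole chromosomes or to segments, medians were taken in 10 Mb windows, numbered from the start of each chromosome. Chromosome 10 held 14 windows and chromosome 22 held 5, with at least 30 peaks in each. Of these 19 medians, 18 were above 0 (19 in batch 1 alone and 17 in batch 2 alone), whereas 88 of 262 windows on the other autosomes (33.6%) were. The other windows had a 10th percentile of -0.20, a median of -0.04 and a 90th percentile of 0.09, and 16 of the 19 windows exceeded that 90th percentile. In 13 of the 19 windows, and in 23 (8.78%) of the other windows, every knockdown library median exceeded every control library median. The 19 windows belong to chromosomes chosen for their high medians, so these counts are descriptions and carry no test.

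The windows did not share 1 level. On chromosome 10 the window from 30 to 40 Mb had the largest median, 0.32 over 79 peaks, and ranked 2 among all 281 autosomal windows of at least 20 peaks. Its control libraries lay at -0.072, 0.021 and 0.063 and its knockdown libraries at 0.197, 0.30 and 0.402. The window from 110 to 120 Mb followed with 0.25 over 100 peaks, and the lowest were the windows from 100 to 110 Mb with 0.04 over 106 peaks and from 50 to 60 Mb with 0.04 over 30 peaks. In that last window the batches differed in sign, with 0.11 in batch 1 and -0.02 in batch 2. Over peaks more than 1 kb from a gene end, all 14 medians of chromosome 10 were positive, from 0.12 to 0.37.

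Chromosome 22 had a break in the pattern. The other 4 windows had medians of 0.16 (10 to 20 Mb), 0.20 (30 to 40 Mb), 0.17 (40 to 50 Mb) and 0.24 (50 to 60 Mb), the last over 30 peaks and at 0.13 and 0.14 in the separate batches. The window from 20 to 30 Mb, with 147 peaks, had a median of -0.06, at 0.02 in batch 1 and -0.03 in batch 2. Its control libraries lay at -0.039, 0.001 and 0.039 and its knockdown libraries at -0.049, 0.020 and 0.101, so that the groups overlapped. They also overlapped in the 50 to 60 Mb window of this chromosome, with control from -0.120 to 0.119 and knockdown from 0.081 to 0.262. On chromosome 10 they overlapped in the windows from 50 to 60, 100 to 110, 120 to 130 and 130 to 140 Mb. Over the rest of the chromosome, control libraries lay at -0.020, 0.005 and 0.047 and knockdown libraries at 0.177, 0.212 and 0.233, with no overlap. Of the peaks in the 20 to 30 Mb window, 25.2% lay near a gene end, between the shares of its neighbours, 17.9% and 26.7%. Its 110 peaks away from gene ends had a median of 0.09, against 0.26 to 0.41 in the other windows of chromosome 22. The 50 peaks around the NIPSNAP1 peak described further down, chr22:28670026-30409248, had a median of 0.19. That stretch begins in this window and runs past 30 Mb into the next, so it does not describe this window alone.

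**Figure D3:**
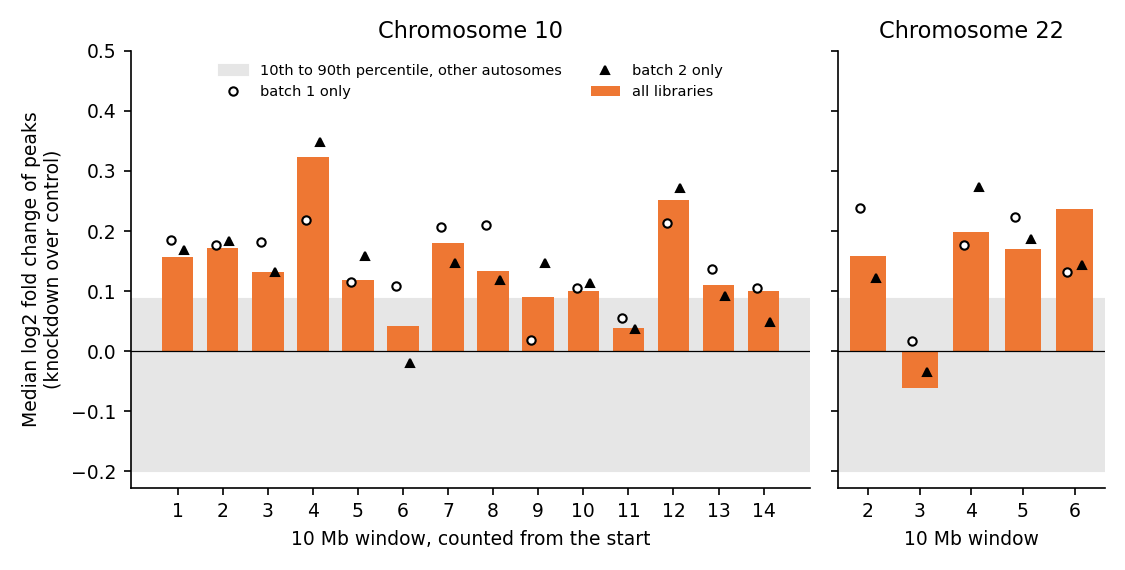
Median log2 fold change (vertical axis) in 10 Mb windows numbered from the chromosome start (horizontal axis), for all libraries (bars), batch 1 (circles) and batch 2 (triangles). The grey band spans the 10th to 90th percentile of windows on the other autosomes, -0.20 to 0.09; window 3 of chromosome 22 is the one bar below 0.

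A running median over 51 neighbouring peaks gave a finer view. It was positive at 97.3% of positions on chromosome 10 and 83.6% on chromosome 22. The highest stretch of chromosome 10, chr10:74223590-79027963, stood at a median of 0.55 over its 51 peaks, and the same stretch was highest in each batch taken alone (0.53 in both). Its libraries lay at -0.110, 0.004 and 0.074 in control and 0.309, 0.483 and 0.645 in knockdown. These libraries chose the stretch, so their separation is a description only. The lowest stretch of the chromosome, chr10:101558036-103199997, had -0.06, and its position differed in the separate batches. On chromosome 22 the lowest stretch was chr22:20155019-23142607 with -0.17, and batch 1 alone gave the same stretch and batch 2 a largely overlapping one. It covers CRKL, an adaptor of receptor signalling, among other genes. The highest stretch of chromosome 22, chr22:40711320-42445023 with 0.42, holds EP300, a histone acetyltransferase, and SREBF2, a regulator of cholesterol synthesis, but each batch alone placed its highest stretch elsewhere. Batch 1 had it at chr22:28826416-30979421 (0.46), which begins inside the 20 to 30 Mb window, and batch 2 at chr22:42993652-45585439 (0.40).

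Within the high stretch of chromosome 10, peaks changed in both directions. Of its 51 peaks, 35 had a positive change, 25 were called gained and 5 lost. Over all peaks of the series 21.3% were gained and 20.7% lost. The stretch was chosen for its high median in these libraries, so an excess of gains follows from the choice. LRMDA, a gene needed for melanocyte differentiation, held 13 of them, and these are described because they were the most for any gene there. At chr10:75547222-75547856 the normalised counts were 8.07, 19.2 and 22.5 in control and 48.7, 56.5 and 62.1 in knockdown libraries, a log2 fold change of 1.75 ± 0.22 (standard error). At chr10:75612716-75613391, 64860 bp further on, they were 36.4, 40.4 and 50.4 in control and 11.5, 18.4 and 22.4 in knockdown, a change of -1.32 ± 0.22. The groups did not overlap at either site, and the directions were opposite. The strongest LRMDA peak, chr10:76306242-76307567, had 83.2, 102.9 and 113.8 in control and 90.2, 119.2 and 137.0 in knockdown libraries, with overlapping groups. In all, 8 of the 13 peaks were called gained, 3 lost and 2 neither. ZMIZ1, which encodes a SUMO ligase-like coregulator, was the nearest gene to 6 peaks of the same stretch, all outside the gene. Of these, 4 were gained and none lost. In or within 10 kb of ZMIZ1 itself lay 13 peaks with a median log2 fold change of 0.08, 5 gained and 1 lost. The loss was at chr10:79293671-79294892, with a change of -1.74 ± 0.28.

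The call of a peak by itself mixes the level of its window with its own behaviour. At an adjusted p under 0.05 and a fold change over 1.1, 557 of the 1894 peaks (29.4%) were gained and 244 (12.9%) were lost, where over all peaks of the series 21.3% were gained and 20.7% lost. Called in either direction were 801 (42.3%), against 42% over all peaks. Groups did not overlap in either batch, with knockdown above, at 399 peaks (21.1%, background 14.4%) and, with knockdown below, at 178 (9.4%, background 13.9%). The excess of gains is the same contrast that picked the chromosomes.

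Each peak was then compared with the median of the other peaks of its 10 Mb window. The difference was divided by the standard error of the peak's own log2 fold change and adjusted over all 26642 peaks, with the window median taken as known. On this scale 432 peaks (22.8%, background 22.1%) lay above their window and 361 (19.1%, background 19.6%) below it, shares near those of the whole series. Of the 557 gained peaks, 427 (76.7%) also lay above their window and 130 did not. The 130 had log2 fold changes with a median of 0.53 and a range of 0.26 to 1.01, and their median difference from the window was 0.37. Of the 244 lost peaks, 237 lay below their window, and a further 124 peaks lay below it without being called lost. Every one of the 19 windows held peaks of both kinds.

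The last peak inside the threshold was chr10:44233583-44234181, nearest to CXCL12, with a difference of 0.95, and the first outside was chr10:49309735-49310437, nearest to C10orf71, with -0.51. Peaks above their window were narrower, weaker and less often near a gene end than the others, which are descriptions without a test. Of the 432 above, 6.94% lay within 1 kb of a gene end, of the 361 below 20.8% and of the 1101 in neither class 26.3%. Median widths were 822.5 bp above, 1006 bp below and 975 bp in neither class, and the median of the mean normalised count was 27.9, 35.4 and 34.2. Among promoter windows that lay under these peaks, 8 of 18 (44.4%) under peaks above their window held a RUNX core, and 19 of 110 (17.3%) under peaks below it, beside 22.9% of the 533 under any peak of the chromosomes. The 533 belong to 427 genes, and windows of 1 gene can share a peak, so they are not independent. These shares were not tested. Neighbouring peaks up to 10 kb apart that both left their window moved the same way in 66 of 97 pairs (68.0%) and in 682 of 1012 pairs (67.4%) on the other autosomes.

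The batches gave a reading of the displaced peaks in libraries that had not made the call. The reading is not fully independent, because the study kept peaks that were reproducible between the batches. Both batches thus had a part in which peaks could be read. In batch 1 alone, 109 peaks (5.76%, background 5.51%) lay above and 112 (5.91%, background 6.14%) below their window. In batch 2 all 221 kept their direction, and 93 of the 109 (85.3%) and 106 of the 112 (94.6%) passed the same call. Of all peaks of the series, whether called in batch 1 or not, 13.1% and 12.5% did. The share among batch 1 calls of the whole series is not given. The median difference of the peaks above was 1.55 in batch 1 and 1.23 in batch 2, and that of the peaks below was -1.48 and -1.34. Both batches used the same derived lines, so the reading repeats the immunoprecipitation and not the making of the lines. The interaction of knockdown and batch passed an adjusted p of 0.05 at 0 peaks (0%, background 0%) with DESeq2 and at 0 (0%, background 0%) with edgeR, while an unadjusted p under 0.05 was reached at 46 peaks (2.43%, background 2.51%) with DESeq2 and at 97 (5.12%, background 5.34%) with edgeR.

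**Figure D4:**
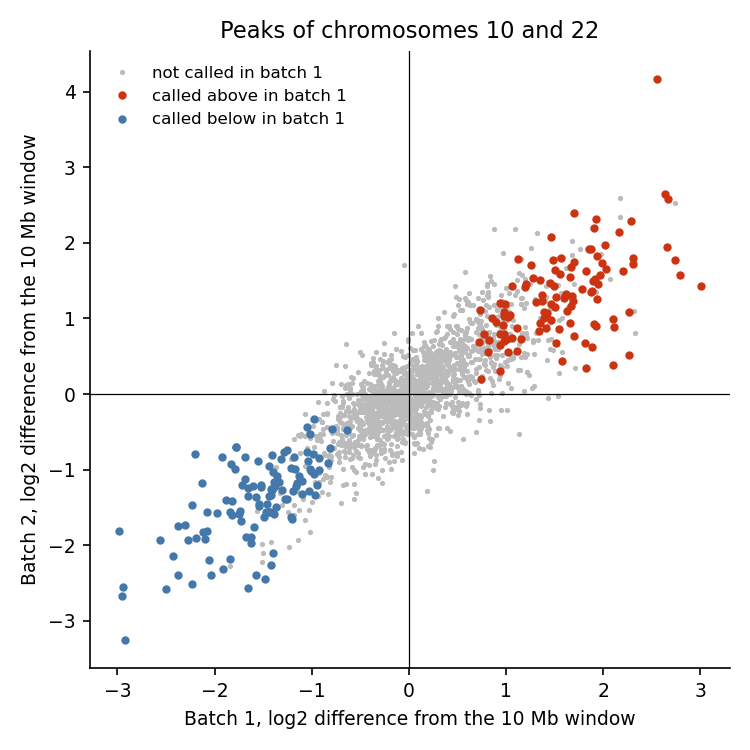
Log2 difference of each peak of chromosomes 10 and 22 from its 10 Mb window in batch 1 (horizontal axis) and batch 2 (vertical axis), 1 point per peak. Red and blue points are the 109 and 112 peaks called above and below in batch 1; all of the former lie above 0 and all of the latter below 0 in batch 2.

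Among peaks averaging at least 30 normalised counts with the groups apart in both batches, the 8 furthest above their window departed by at least 1.68 on the log2 scale, and none of them overlapped a promoter of the RefSeq table. A further 30 peaks departed by more but averaged fewer counts, up to 3.31 at chr22:45531822-45532456 inside FBLN1. The first of the 8 was at chr22:29584827-29585791, 4196 bp upstream of the start of NIPSNAP1, a mitochondrial protein with a part in mitophagy. Its normalised counts were 7.80, 9.39 and 15.6 in control and 55.7, 61.0 and 72.4 in knockdown libraries, a log2 fold change of 2.62 ± 0.25 against a window level of -0.06. The groups were far apart. Although the median of its whole window was below 0, the 50 peaks around it, chr22:28670026-30409248, had a median of 0.19 (0.18 in batch 1 and 0.27 in batch 2), from which it departed by 2.43. Inside SVIL, which encodes the actin-binding protein supervillin, chr10:29478930-29479705 rose from 8.38, 14.2 and 17.3 to 46.6, 50.8 and 62.1. Upstream of SMC3, a subunit of the cohesin ring, chr10:110544520-110545533 had 8.67, 14.9 and 19.9 in control and 56.6, 65.8 and 80.75 in knockdown libraries, 22669 bp from the start. In all 8 peaks every knockdown library lay above every control library of its batch, as the choice required.

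Inside BTRC, which encodes the substrate receptor β-TrCP of a ubiquitin ligase, chr10:101453489-101454473 departed by 1.71 from a window level of 0.03. The others were inside DESI1, a SUMO protease (chr22:41603724-41604735, difference 2.31), inside CELSR1, a cadherin of planar cell polarity (chr22:46498892-46499635, 1.80), inside SCUBE1 (chr22:43205316-43206642, 1.78) and in a gene-poor region (chr10:62584095-62584742, 1.68). The SCUBE1 peak had the widest control spread of the 8, at 14.1, 37.3 and 62.4 against 123, 141 and 166 in knockdown libraries.

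Under the same limits the 8 peaks furthest below their window were all on chromosome 10, against the upward level of that chromosome. Here too a further 30 peaks with fewer counts departed by more, up to -3.15 at chr10:37667434-37668218, to which ZNF248 is the nearest gene. The first of the 8 was inside DIP2C at chr10:620096-620973, with normalised counts of 55.9, 77.1 and 89.9 in control and 7.31, 14.5 and 16.8 in knockdown libraries, a log2 fold change of -2.51 ± 0.20 where the window stood at 0.16. The groups did not overlap, and yet a stronger peak in the same gene, chr10:450740-451972, had overlapping groups, at 149, 181 and 201 in control and 184, 201 and 237 in knockdown (log2 fold change 0.16 ± 0.09). Upstream of PIP4K2A, a phosphatidylinositol phosphate kinase, chr10:22723001-22723882 had 103, 133 and 185 in control and 33.6, 39.1 and 40.8 in knockdown libraries. It was the strongest of the 8 in control cells, and its groups were far apart.

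A further 3 of these losses lay between genes, far from the nearest start. The peak chr10:8132904-8133687 lay 72838 bp downstream of the start of GATA3, a lymphoid transcription factor, outside the gene, and had 50.3, 59.3 and 84.3 in control and 10.96, 15.6 and 19.8 in knockdown libraries. The peak chr10:31214787-31215637 lay 103205 bp upstream of ZEB1, a repressor known from epithelial-mesenchymal transition, and departed by -2.01 from the highest window of the chromosome. Upstream of CXCL12, the ligand of CXCR4, the peak chr10:44479279-44479920 at 94502 bp from the start departed by -2.13, from 31.2, 57.6 and 63.2 to 10.2, 12.98 and 17.7. Another CXCL12 peak moved the other way. At chr10:44393377-44394589, within 10 kb of the gene, counts were 16.9, 27.9 and 37.2 in control and 53.4, 62.1 and 71.4 in knockdown libraries (log2 fold change 1.22 ± 0.19). The remaining 3 were inside SYNPO2L (-1.79), PFKFB3 (-1.68) and ANXA8 (-1.97), and the ANXA8 region has near-identical copies on chromosome 10, so its read assignment is uncertain.

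**Figure D5:**
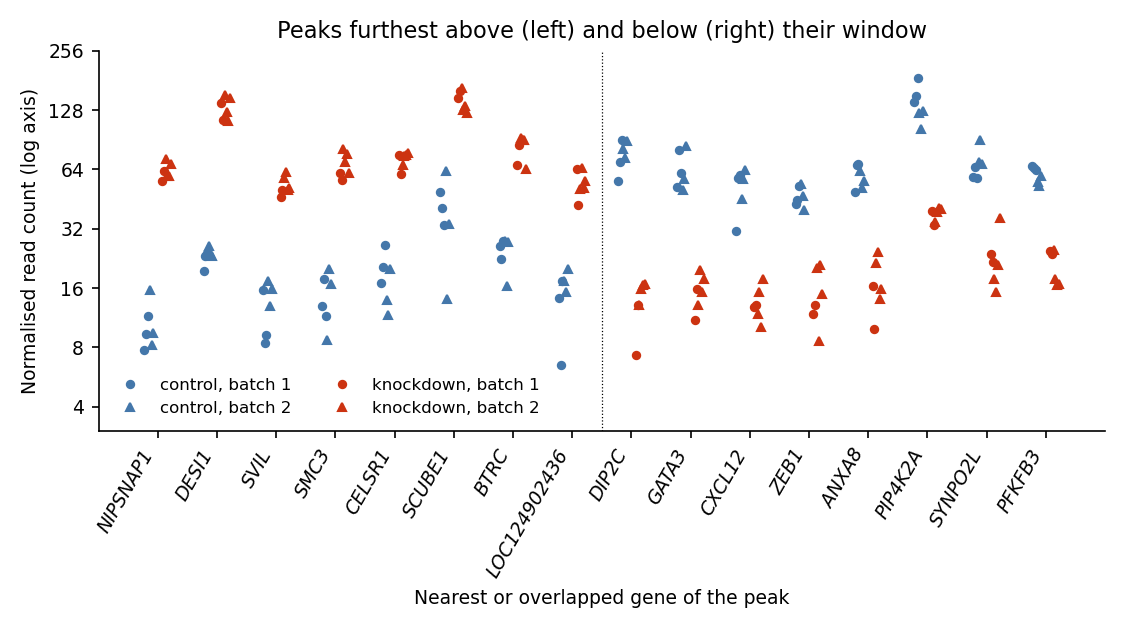
Normalised read count per library (vertical axis, log scale) of the 8 peaks furthest above (left) and the 8 furthest below (right) their window, named by gene (horizontal axis). They were taken among peaks averaging at least 30 normalised counts with the groups apart in both batches. Blue points are control and red points knockdown libraries, circles batch 1 and triangles batch 2; at DIP2C control spans 55.9 to 89.9 and knockdown 7.31 to 16.8.

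The 3 strongest peaks of each chromosome were read in the same way, and 2 of these 6 lay above their window and none below. On chromosome 10 the peak nearest CALML3 (chr10:5551142-5552721) had 164, 183 and 216 in control and 229, 248 and 264 in knockdown libraries, a log2 fold change of 0.43 ± 0.09 and a difference from its window of 0.28, which passed the test. The peak downstream of ADAM8 (chr10:133258667-133259899) had 162, 182 and 207 against 183, 204 and 221, a change of 0.10 ± 0.09 at a window level of 0.10, with overlapping groups. On chromosome 22 the strongest peak, inside TXN2, a mitochondrial thioredoxin (chr22:36467270-36469028), had 167, 175 and 190 against 190, 215 and 248. It was called gained with 0.27 ± 0.09 and differed from its window by 0.07. The peak inside SYN3 (chr22:32573851-32576183) changed by 0.04 ± 0.09 and lay 0.16 under its window. At the promoter of MLC1, a membrane protein of astrocytes (chr22:50084557-50086823), counts rose from 120, 137 and 154 to 210, 225 and 261, and the difference of 0.49 from the window passed the test.

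The peaks over the printed promoters moved in both directions. The MRTFA promoter printed is 1 of 3 in the table, at an internal start, and lies under chr22:40463101-40464140, which had 21.9, 29.2 and 33.7 in control and 11.5, 16.8 and 23.8 in knockdown libraries, a log2 fold change of -0.80 ± 0.24 and a difference from its window of -0.98. The other MRTFA promoters lie under stronger peaks that were not called on either test, chr22:40533481-40534658 with a change of 0.04 ± 0.18 and chr22:40636145-40638337 with -0.01 ± 0.10. The BID promoter printed is 1 of 5 in the table and also at an internal start. It lies under chr22:17772962-17774140, which ends short of the outer end of the gene at 17774665. This peak had 36.4, 55.0 and 62.1 in control and 65.2, 84.3 and 100.7 in knockdown libraries and a difference of 0.50. These groups did not overlap at BID and overlapped slightly at MRTFA. The XBP1 promoter printed is 1 of 2 in the table, at an internal start, and the peak over it also covers the outer end of the gene. That peak had 55.3, 78.7 and 111 in control and 26.1, 51.4 and 61.2 in knockdown libraries, and was called lost with a difference of -0.60. The peak over the printed BCL2L13 promoter, also at an internal start, differed by -0.68 and was not called lost, with overlapping groups at 23.4 to 47.4 and 21.7 to 32.4. The other BCL2L13 promoters lie under a stronger peak, chr22:17638107-17640325, with 52.0, 74.99 and 95.9 against 54.0, 66.3 and 74.6 and a difference of -0.39, which passed the test against the window. At promoters of ZEB1 and JMJD1C, a jumonji family protein, the log2 fold changes of -0.16 ± 0.17 and -0.27 ± 0.12 did not pass the test against 0, but the differences of -0.49 and -0.45 from their windows did. Another JMJD1C promoter lies under chr10:63268759-63269684, which differed by -0.04 and was not called.

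Genes of 4 lists were then read through the peaks in or within 10 kb of them. The lists hold 81 genes of the chromosomes, and 70 had a peak in that reach, 243 peaks in all. Of these, 52 (21.4%) lay above and 52 (21.4%) below their window, beside 22.1% and 19.6% of all peaks. Without DESI1, which was placed in a list with its gain already known, these were 50 (20.8%) and 52 (21.7%) of 240 peaks. The 11 genes with no peak in reach included FAS, NRP1, CSF2RB, PRF1, BLNK, GATA3 and CREM.

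Cytokines, their receptors and ligands had 18 peaks at 10 of 13 genes, of which 5 lay above and 4 below their window, with a median log2 fold change of 0.37 beside 0.14 over both chromosomes. PDGFB, a platelet-derived growth factor chain, had 3 peaks, all called gained. At chr22:39212481-39213553 counts were 12.1, 17.2 and 33.4 in control and 47.5, 61.1 and 87.7 in knockdown libraries, with a difference from the window of 1.48. Its strongest peak, chr22:39236056-39237179, had 87.4, 99.1 and 124 against 119, 139 and 159 and lay 0.24 above its window, which did not pass that test. IL2RB, the interleukin-2 receptor β chain, had 1 peak, chr22:37149666-37150338, with 7.37, 11.2 and 18.6 against 21.4, 27.7 and 36.5. The strongest peaks of IL17RA, the interleukin-17 receptor, of MIF, a macrophage cytokine, and of OSM, a cytokine of the interleukin-6 family, passed neither the test against 0 nor that against the window. Other peaks of IL17RA and OSM did. Of the 5 IL17RA peaks, 1 lay above its window (chr22:17079243-17080236, difference 0.99) and 2 below. At 1 of the latter, chr22:17106246-17107508, counts were 107, 116 and 127.9 in control and 71.1, 82.3 and 88.5 in knockdown libraries, without overlap, and the difference was -0.75. Of the 3 OSM peaks, 1 was called gained and another, chr22:30255611-30256530, lay below its window with -0.76.

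Transcription and chromatin regulators had 89 peaks at 21 of 24 genes, with 12 above and 16 below and a median log2 fold change of 0.06. MRTFA had 7 peaks on the upward chromosome 22, of which 4 lay below their window and none above. By the call against 0, 3 were lost and 1 was gained, chr22:40572726-40573465 with a change of 0.64 ± 0.28. At the strongest MRTFA peak, chr22:40434785-40437143, counts were 153, 186 and 205 in control and 116, 124 and 135 in knockdown libraries, without overlap, a change of -0.55 ± 0.10. The peak over the outermost MRTFA promoter, chr22:40636145-40638337, had 122, 137 and 155 against 129, 136 and 146, a change of -0.01 ± 0.10.

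TCF7L2, an effector of Wnt signalling, had peaks on either side of its window, 2 above and 3 below of 7. At chr10:112981416-112982088 counts were 11.5, 17.8 and 23.4 in control and 40.2, 46.8 and 58.2 in knockdown libraries. At chr10:112985651-112986897, 3563 bp further on, they were 53.8, 62.6 and 78.0 in control and 21.9, 30.6 and 41.0 in knockdown libraries. The groups did not overlap at these neighbouring peaks, and the differences from the window were 1.15 and -1.31. TCF7L2 was singled out after its values were seen. Near MLLT10, a fusion partner in leukemia, chr10:21528633-21531668 had 100.2, 130 and 233 against 74.0, 97.2 and 145 and was called lost, although the groups overlapped. The peak over the ATF4 promoter, a stress response factor, changed by -0.09 ± 0.12 and lay 0.29 under its window, a call that ended without control replicate 6 (difference -0.17) among others.

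Myeloid effector and signalling genes had 95 peaks at 27 of 29 genes, with 21 above and 22 below and a median log2 fold change of 0.09. ALOX5, the 5-lipoxygenase of leukotriene synthesis, had 2 peaks and both were gained. Its stronger one, chr10:45379768-45381114, had 135, 148 and 152 in control and 162, 191 and 196 in knockdown libraries, and the difference of 0.22 from its window passed the test by a small margin and no longer did so without control replicate 4 (0.18), among others. At PTPRE, a receptor-type tyrosine phosphatase, and VIM, the intermediate filament vimentin, the strongest peaks changed by -0.13 ± 0.11 and -0.01 ± 0.11, with overlapping groups.

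A pair of genes of this list, chosen after their values were seen, had peaks that moved apart within 1 gene. PARVG, an actin-associated parvin of blood cells, had 8 peaks, 5 of them gained and 1 lost. At chr22:44163852-44164845 counts were 5.76, 10.5 and 11.7 in control and 38.4, 45.5 and 61.5 in knockdown libraries, a log2 fold change of 2.33 ± 0.27. At chr22:44180757-44183479 they were 86.4, 93.1 and 116 against 58.1, 70.6 and 83.1, a change of -0.44 ± 0.13, and neither pair of groups overlapped. Its strongest peak, chr22:44172261-44173550, changed by 0.08 ± 0.11. PFKFB3, a regulator of glycolysis, had 11 peaks, 4 gained and 3 lost. At chr10:6290713-6291692 counts rose from 14.9, 26.5 and 36.3 to 50.2, 54.8 and 64.3, and at chr10:6299734-6301142, 8042 bp further on, they fell from 52.8, 61.2 and 66.3 to 16.6, 20.8 and 24.9.

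Survival, cell cycle and tumour suppressor genes had 41 peaks at 12 of 15 genes, with 14 above and 10 below and a median log2 fold change of 0.11. Without DESI1 these were 12 above and 10 below of 38 peaks, with a median of 0.11. NF2, the tumour suppressor merlin, had its strongest peak at chr22:29662764-29664016 with 86.4, 93.1 and 119 against 126, 135 and 162, and BIK, a BH3-only protein, at chr22:43125541-43128705 with 71.4, 90.9 and 103 against 113, 136 and 149. Near BAG3, a cochaperone, chr10:119681766-119682903 had 60.04, 69.1 and 84.1 against 99.4, 107 and 121. These 3 were gained and above their window without overlap of the groups. NF2, with a change of 0.53 ± 0.12, lies among the 50 peaks around the NIPSNAP1 peak, whose median was 0.19. CHEK2, a checkpoint kinase, lay in the 20 to 30 Mb window of chromosome 22, and also within that same stretch with the median of 0.19. Both of its peaks were lost, as at chr22:28748983-28749502 with 19.5, 22.8 and 27.9 in control and 4.62, 7.44 and 9.50 in knockdown libraries.

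Depth differed between the groups and moved with the contrast: 630247 to 1199004 reads fell into peaks in control and 938745 to 1719840 in knockdown libraries, and the median peak of chromosomes 10 and 22 held 18 to 33 and 29 to 54 reads. Its part in the results was not tested. No measure of DNA content was analysed here, so copy number and the level of RUNX1 binding over a window cannot be told apart.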

How the data were processed

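RUNX1 ChIP-seq of THP-1 cells (6 control and 6 knockdown libraries in 2 batches) was analysed from the table of raw read counts per peak that the authors deposited, together with the peak widths in bp. Per the study's methods, reads were aligned with Bowtie2, duplicates were removed and peaks were called with MACS2 per condition and batch. Peaks reproducible between the batches were identified with IDR, then merged over conditions and counted with featureCounts. The peaks were thus called on the libraries compared. The sources name GRCm38 and GRCh38. The build was settled as GRCh38, since 17.6% of the peaks on chromosomes 10 and 22 lay within 1 kb of a RefSeq start and 1.74% to 2.75% did after moving them by 10 kb to 1 Mb.

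Counts were tested with DESeq2 1.42.0 in R 4.3.3 with batch as a covariate (adjusted p under 0.05 and fold change over 1.1, as in the study's methods). Normalised counts are counts divided by median-of-ratios size factors, and values per library use log2 with a pseudocount of 1. The difference from the window used the median of the other peaks of the 10 Mb window (of the chromosome under 20 peaks), the standard error of the peak and a two-sided normal test with Benjamini-Hochberg adjustment over all peaks. Distances refer to protein-coding genes of the RefSeq table of GRCh38.p14, which gives no exons. Promoter sequences were in that table for 55 of 81 list genes.

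Named peaks were the 8 largest differences in each direction among peaks averaging 30 or more normalised counts, with groups apart in both batches, the 3 strongest of each chromosome, the strongest peak of 4 genes per list, and at most 6 promoters. Of the peaks these rules name, 1 is not reported here. The chromosomes, gene lists and rules were chosen with earlier results of these data known. The tools were tested on simulated counts. Alternatives were edgeR 4.0.16, other size factors, covariates, filters, windows and reaches, single batches and leaving out each library. The methods describe independent immunoprecipitations of cell line replicates, so p-values measure the spread between libraries of 1 line per group. Intervals from counts cover counting error only, and none are given.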

Additional observations from a re-analysis of the deposited data

Results flagged for a closer look

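Of 90 groups of 6 libraries examined (the named peaks and 9 library measures, in control and in knockdown cells), 3 held a library far from the other 5, and chance gives about 1 in 20. At the SYNPO2L peak chr10:73650021-73651052, control replicate 5 had a normalised count of 90.3, with the other controls between 57.6 and 69.4. At the NF2 peak chr22:29662764-29664016, control replicate 2 had 119, with the others between 86.4 and 97.5. At the MLC1 promoter peak chr22:50084557-50086823, knockdown replicate 3 had 261, with the others between 210.1 and 229. The 3 values came from different libraries. All 3 peaks stayed past the threshold of the test against their window without the library in question.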

How the results depend on the processing

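The medians of chromosomes 10 and 22 stayed positive under every refit and without any single library (0.13 to 0.16 on chromosome 10 when libraries were left out in turn). They were 0.16 and 0.16 with total in-peak counts as size factors, 0.15 on chromosome 10 with size factors from the other chromosomes, 0.10 and 0.099 with at least 10 counts in every library, 0.16 on chromosome 10 in batch 1, 0.17 on chromosome 22 in batch 2, 0.16 and 0.19 from the share of in-peak reads, 0.23 and 0.26 over peaks away from gene ends, and reversed to -0.044 and -0.061 over peaks within 1 kb of a gene end. Counts of gained and lost peaks were 315 and 120 with at least 10 counts in every library, which tests fewer peaks, 164 and 82 in batch 1, 348 and 155 in batch 2, and 239 and 111 at a fold change over 2. Peaks above and below their window were 255 and 175 with that count filter, 109 and 112 in batch 1, and 262 and 226 in batch 2, both with fewer libraries. Peaks picked in batch 2 passed in the smaller batch 1 in 35.5% (above) and 46.9% (below). With the replicate block in place of batch, 481 peaks were gained, 199 lost, 371 above and 302 below their window. Same-numbered libraries correlated between -0.09 and 0.23 in their deviations, and 1 control library correlated best with its own number. The 16 peaks named for their departure passed the test under each of their 394 refits. They were chosen for large differences and separated groups in these same libraries, so these refits are no independent check. Of the 894 refits of all 36 named peaks, 32 lost the call, 12 gained it and none reversed. Leaving out 1 library ended the call at ALOX5 (control replicate 1, 2, 4 or 6 or knockdown replicate 2, 4, 5 or 6, difference 0.17 to 0.23), at ATF4 (control replicate 4 or 6 or knockdown replicate 4, 5 or 6, -0.29 to -0.17) and at BAG3 (control replicate 6, 0.29), and gave a call at PTPRE (control replicate 1 or knockdown replicate 1 or 4, -0.33 to -0.27).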
